A study of Homo sapiens with 6 samples.

Results

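SR proteins, hnRNPs and the CLK kinases are the regulators that bind pre-mRNA, or act on its binders, to choose splice sites. They were taken as the genes of the deposited count table named SRSF, HNRNP, CLK or TRA2 followed by their family number or letter, which gave 47 of 26485 genes. Of these, 14 are SR proteins, the TRA2 pair included, 20 are hnRNPs, 4 are CLK kinases and 9 are retrocopies or pseudogenes of hnRNPs. The counts come from THP1 cells, an established human acute monocytic leukemia line, which received either withaferin A (WFA), a steroidal lactone from a plant, or its solvent DMSO for 6 h. There were 3 libraries per treatment, all from the same unmodified line, and the study asked with them whether loss of the transcription factor c-MYB after WFA is mirrored in gene expression. The WFA concentration is 1 mM in the sample labels and 1 μM in the study's methods, and the data cannot tell which was used. Each replicate number stands for an independent experiment.

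SR proteins carry RNA recognition motifs and a tail rich in arginine and serine, and they usually bind exonic enhancers and recruit the spliceosome. The hnRNPs coat nascent transcripts and often act against SR proteins at silencers, and many also handle export, stability or translation. CLK kinases phosphorylate the tails of SR proteins in the nucleus and release them from speckles, while SRPK kinases do so mainly in the cytoplasm before import by transportins. Many of these genes control their own level through alternative exons that send the transcript to nonsense-mediated decay.

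The 6 libraries held between 11006035 and 13872810 counted reads each. The line's myeloid origin was checked on 15 myeloid markers. Their summed level was 3694 to 4503 depth-scaled reads (CPM) in DMSO libraries and 3351 to 4454 in WFA libraries. LYZ alone made up 1823 ± 278 CPM with DMSO and 1764 ± 358 CPM with WFA, so the sum hides other markers. Of 14 put to the test described below, 7 were lower, 50% against 24.7% of all tested genes. Only 2 were higher, 14.3% against 25.8%. KIT fell from 18.6 ± 2.04 to 2.11 ± 0.803 CPM, and ITGAX rose from 56.6 ± 10.3 to 79.1 ± 8.23 CPM. The summed level of 15 markers of other cell types was 8.92 to 12.3 CPM with DMSO and 18.5 to 26.3 CPM with WFA, with 4 of the 15 at 0 in every library. Most of that rise was the collagen gene COL1A1, at 0.453 ± 0.333 CPM with DMSO and 9.95 ± 2.27 CPM with WFA (SD, n = 3). Its part in the results below was not tested. CPM is the usual count scaled by library size, here with TMM factors, and as it is not divided by transcript length it compares a gene between libraries, not one gene with another. Fewer living cells of a kind and less RNA per cell cannot be told apart in such bulk libraries.

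The filter on low counts left 12854 genes, among them 38 members, namely all SR proteins, all hnRNPs, 3 CLK kinases and the retrocopy HNRNPA1L2. A gene was called changed at an adjusted p under 0.05 in the quasi-likelihood test of edgeR, adjusted by the Benjamini-Hochberg method over the 12854 genes. Of the 38 members, 25 were lower with WFA, 65.8%, where 24.7% of all tested genes were lower. Only 2 members were higher, 5.26%, where 25.8% of all tested genes were higher. Members that fell by at least 1.5-fold numbered 12, against 13.0% of all tested genes, and those that rose by that much numbered 2, against 15.7%. Every WFA library lay below every DMSO library for 28 members, against 28.5% of all tested genes, and above it for 2 members, against 29.6%. With 3 libraries against 3, an exact permutation test of a single gene cannot give a p under 0.1.

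The falls were shared by SR proteins and hnRNPs and had the lower median among SR proteins. Of 14 SR proteins 10 fell, 8 of them by at least 1.5-fold, and none rose. Of 20 hnRNPs 14 fell, 3 of them by at least 1.5-fold, and none rose. Of all tested genes 24.7% fell, 13.0% fell by at least 1.5-fold and 25.8% rose. The hnRNPs that fell by at least 1.5-fold, 3 of 20, were thus near the share of all tested genes. The median log2 fold change was -0.64 over SR proteins, -0.35 over hnRNPs and 0.02 over all tested genes. Of the 3 tested CLK kinases 2 rose, both by at least 1.5-fold, as did 15.7% of all tested genes.

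**Figure D1:**
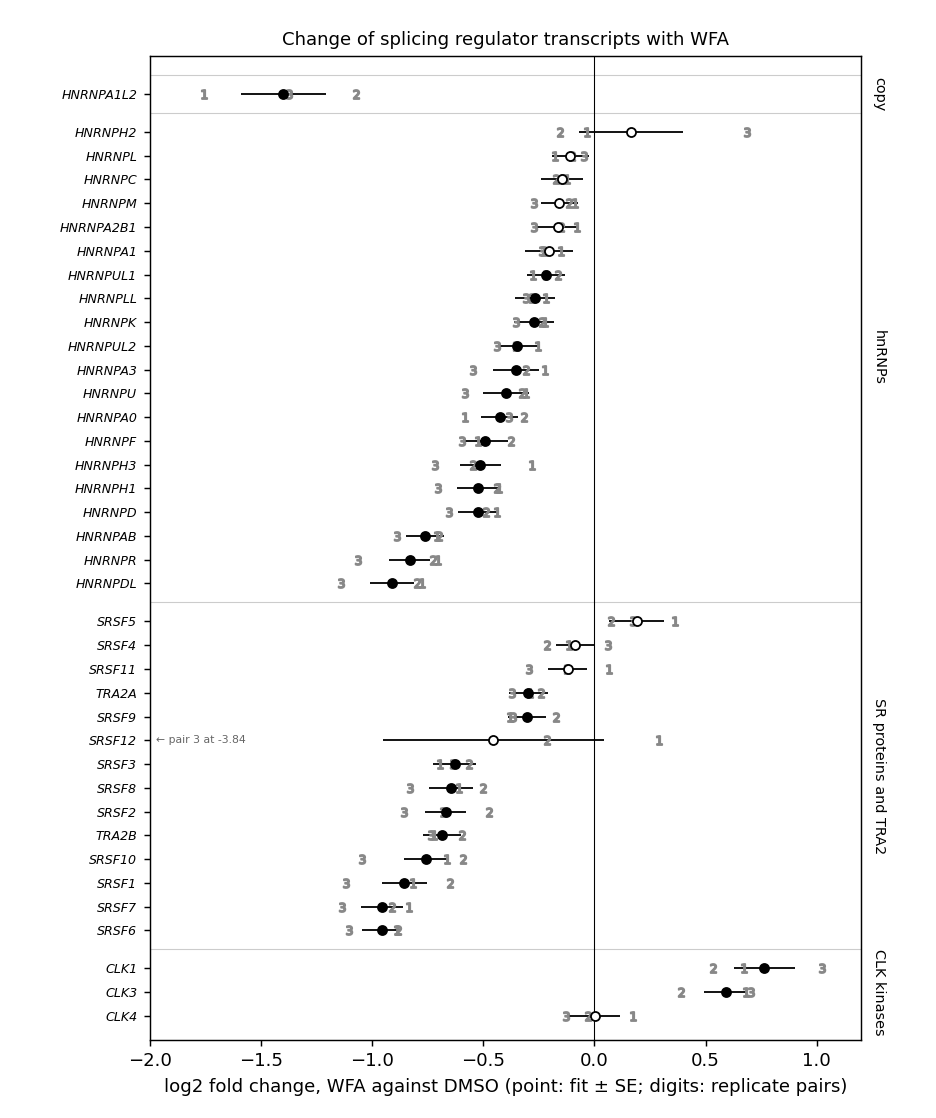
Fitted log2 fold change of each tested gene, WFA against DMSO, with its standard error as a bar, grouped by family. Filled points passed an adjusted p of 0.05 in edgeR's test, open points did not, and the small digits give the log2 ratio within each same-numbered pair of libraries, 1 of which lies beyond the axis and is written out. SR proteins reach from -0.96 to 0.19, hnRNPs from -0.91 to 0.16 and CLK kinases from 0.00 to 0.76.

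Summed over the family, SR protein transcripts made up 3752, 3827 and 3870 CPM in DMSO replicates 1, 2 and 3, and 2518, 2699 and 2361 CPM in the WFA replicates. The sum with WFA was thus 66.2% of that with DMSO, and the groups did not overlap. The summed hnRNP level was 11515 ± 217 CPM with DMSO and 9104 ± 570 CPM with WFA, or 79.1%. The summed CLK level went the other way, from 135.8 ± 11.1 CPM to 206 ± 32.7 CPM.

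Among the CLK kinases, CLK1 had 67.6, 79.8 and 81.3 CPM in the DMSO libraries and 108, 116 and 166 CPM in the WFA libraries. All WFA libraries were above all DMSO libraries, and WFA replicate 3 was the highest by a wide margin. The log2 fold change was 0.76 (SE 0.137), with an adjusted p of 0.000284 in edgeR's test. CLK1 is the best studied of these dual-specificity kinases, and the splicing of its own transcript responds to heat and to CLK inhibitors. Without WFA replicate 3 its log2 fold change was 0.55.

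CLK3 showed a rise of like size, from 32.9, 36.2 and 32.3 CPM with DMSO to 52.7, 47.4 and 52.8 CPM with WFA. Its groups did not overlap, and its log2 fold change was 0.59 (SE 0.0982) with an adjusted p of 0.000149 in edgeR's test. CLK3 just passed the 1.5-fold mark and lay under it when libraries were scaled by RLE factors or total counts. CLK4, the closest relative of CLK1, had 22.6, 26.7 and 28.1 CPM with DMSO and 25.5, 26.2 and 25.7 CPM with WFA. The WFA libraries fell within the DMSO range, and edgeR gave a log2 fold change of 0.00 (SE 0.115) with an adjusted p of 0.989. Within the libraries the ratio of CLK1 to CLK4 reads was 2.99, 2.99 and 2.90 with DMSO and 4.22, 4.42 and 6.45 with WFA. CLK2 was listed at 0 in every library. PRPF8, the central protein of the spliceosome, and DHX16, TAF15 and CWC25 were also listed at 0, so a listed 0 is not read here as absence of the transcript.

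Per kilobase of transcript, CLK1 was at 40.4 CPM with DMSO and 68.6 CPM with WFA. CLK3 was lower at 18.3 and 27.6 CPM, and CLK4 was at 10.0 CPM in either group. The length was the median over complete transcripts tagged as principal of the top level in the annotation, as for these kinases. Genes without such a tag were divided by the length of their longest coding transcript. CLK1 is a gene of the minus strand at chr2:200853009-200864744, CLK3 lies on the plus strand at chr15:74598500-74645414 and CLK4 on the minus strand at chr5:178602664-178630615 (hg38, gene bounds of GENCODE 29).

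The largest fall among SR proteins was that of SRSF6, an exonic enhancer binder with a pair of RNA recognition motifs. SRSF6 had 326, 354 and 369 CPM with DMSO and 176, 192 and 172 CPM with WFA. Every WFA library was far below every DMSO library, and the log2 fold change was -0.96 (SE 0.0885, adjusted p 5.34e-07 in edgeR's test). SRSF7, which also adapts mRNA to the export receptor, fell almost as far, by 0.95 on the log2 scale (SE 0.0939, adjusted p 9.74e-07 in edgeR's test). Its levels were 254, 266 and 255 CPM with DMSO and 142, 142 and 116 CPM with WFA. Its groups were again well apart, with WFA replicate 3 the lowest.

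SRSF1, the founding member of the family and a proto-oncogene when overexpressed, had 645, 594 and 652 CPM with DMSO and 366, 378 and 301 CPM with WFA. The groups did not overlap, and SRSF1 stood at 55.3% of its DMSO level (log2 fold change -0.85, SE 0.101, adjusted p 5.80e-06 in edgeR's test). An annotated transcript of the same strand, AC015813.2, covers 56.6% of its exon bases, so reads from either could not be separated by position. SRSF10, a repressor of splicing when it is dephosphorylated, had 287, 267 and 297 CPM with DMSO and 181, 177 and 144 CPM with WFA. It too was lower in each WFA library, with a log2 fold change of -0.76 (SE 0.0989, adjusted p 1.57e-05 in edgeR's test).

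SRSF2, a nuclear speckle protein that is recurrently mutated in myeloid neoplasms, had 415, 406 and 446 CPM with DMSO and 259, 292 and 246 CPM with WFA. SRSF2 fell without overlap, by 0.67 on the log2 scale (SE 0.0919, adjusted p 2.63e-05 in edgeR's test). The gene MFSD11 on the opposite strand covers 36.7% of the exon bases of SRSF2 and moved the other way, by a log2 fold change of 0.57. The library kit does not mark strand, so reads in the shared part can stem from either gene. SRSF8, a retrogene copy of SRSF2, was lower as well, at 60.2, 52.8 and 60.1 CPM with DMSO and 39.5, 37.4 and 33.8 CPM with WFA. Its log2 fold change was -0.64 (SE 0.1003), and SRSF8 and SRSF2 thus fell by like amounts.

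SRSF3, the smallest SR protein, had 629.6, 683 and 606 CPM with DMSO and 389, 462 and 390.2 CPM with WFA. It fell to 64.7% of its DMSO level, with groups well apart (log2 fold change -0.63, SE 0.0971, adjusted p 7.82e-05 in edgeR's test). Per kilobase of transcript, SRSF1 was the highest SR protein with DMSO at 417 CPM, followed by SRSF3 at 251 CPM and SRSF2 at 176 CPM. With WFA, SRSF1 and SRSF3 were at 230.3 and 163 CPM per kilobase, followed by SRSF5 at 128 CPM, SRSF9 at 115 CPM and SRSF2 at 110.4 CPM. SRSF7, SRSF10, SRSF11, TRA2A and TRA2B had no complete transcript tagged as principal of the top level and were divided by their longest coding transcript. The order over the family is therefore uncertain.

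TRA2A and TRA2B bind purine-rich enhancers and are the vertebrate relatives of the fly sex determination factor transformer-2. TRA2B fell from 390.0, 374 and 370.3 CPM to 236, 247 and 222 CPM. The groups did not overlap, and the log2 fold change was -0.68 (SE 0.0844, adjusted p 9.20e-06 in edgeR's test). TRA2A fell less, from 106, 117 and 113 CPM to 87.0, 98.9 and 87.8 CPM, with a log2 fold change of -0.30 (SE 0.0867, adjusted p 0.00989 in edgeR's test). In each WFA library the ratio of TRA2A to TRA2B reads, 0.368 to 0.401, was above that in each DMSO library, 0.273 to 0.312.

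SRSF9, which completes the called SR proteins, fell by 0.30 on the log2 scale (SE 0.0854, adjusted p 0.00792 in edgeR's test). GATC on the opposite strand covers 46.2% of its exon bases, and the log2 fold change of GATC was 0.01. SRSF4, SRSF5, SRSF11 and SRSF12 did not pass the test. SRSF4, the longest relative of SRSF6, had a log2 fold change of -0.09 (SE 0.0873), and SRSF11 had one of -0.12 (SE 0.0878). For SRSF12 the libraries held only 1 to 20 reads, which is too shallow to show a change of this size.

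SRSF5, which is close to SRSF4 and SRSF6 in sequence, had 146, 216 and 189.6 CPM with DMSO and 187, 228 and 214 CPM with WFA. Its groups overlapped, and the log2 fold change was 0.19 (SE 0.124, adjusted p 0.218 in edgeR's test). Within each same-numbered pair the WFA library was the higher, and with the replicate number as a block edgeR called SRSF5 higher (log2 fold change 0.20, adjusted p 0.0208). Among reads of the SR family the share of SRSF5 was 3.88% to 5.65% with DMSO and 7.44% to 9.07% with WFA. The share of SRSF6 was 8.69% to 9.53% with DMSO and 7.01% to 7.27% with WFA. The makeup of the family thus differed between the groups.

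**Figure D2:**
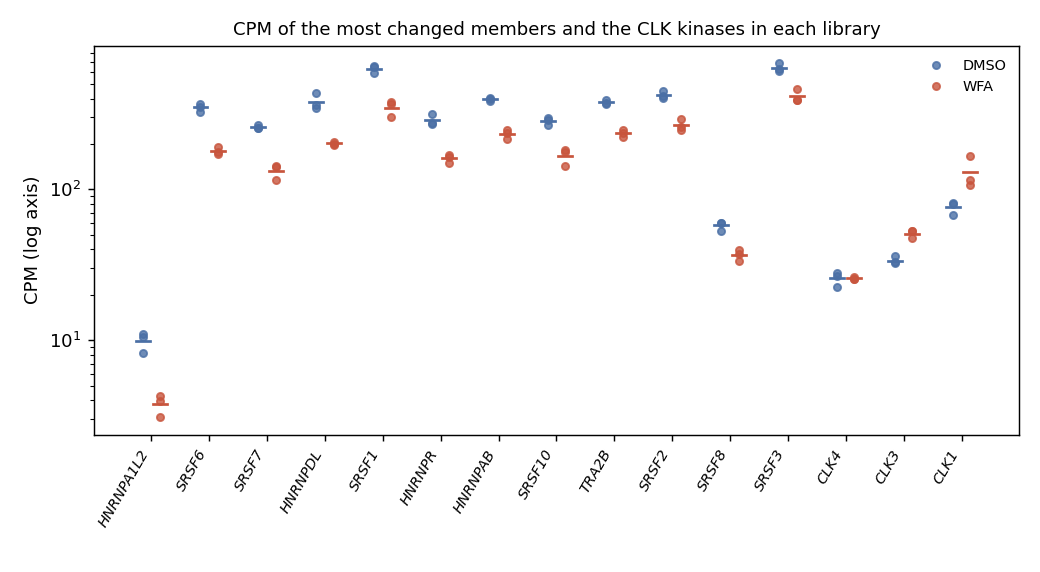
CPM in each library, on a log axis, of the genes called with a change of at least 1.5-fold and of CLK4, with DMSO in blue and WFA in red, points for the 3 libraries and a bar for their mean. From HNRNPA1L2 to SRSF3 all WFA points lie below all DMSO points, CLK4 overlaps, and CLK3 and CLK1 lie above.

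Among hnRNPs the largest fall was that of HNRNPDL, a relative of HNRNPD that binds AU-rich RNA. HNRNPDL had 344, 359.7 and 434 CPM with DMSO and 201, 207 and 197 CPM with WFA. The WFA libraries were tightly grouped below the DMSO libraries, and the log2 fold change was -0.91 (SE 0.0978, adjusted p 2.41e-06 in edgeR's test). HNRNPR, the closest relative of SYNCRIP, had 277, 273 and 314 CPM with DMSO and 170.2, 165 and 150.5 CPM with WFA. It fell without overlap, by 0.83 on the log2 scale (SE 0.0908, adjusted p 2.79e-06 in edgeR's test). HNRNPAB, known as a CArG-box binding factor, had 404, 385 and 398 CPM with DMSO and 248, 237 and 215 CPM with WFA. Its log2 fold change was -0.76 (SE 0.0871, adjusted p 4.36e-06 in edgeR's test), and it completes the hnRNPs that fell by at least 1.5-fold.

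The other called hnRNPs fell by smaller amounts. HNRNPD, which steers the decay of AU-rich mRNAs, had a log2 fold change of -0.53. The family that binds runs of G fell together, with -0.52 for HNRNPH1, -0.51 for HNRNPH3 and -0.49 for HNRNPF, whereas HNRNPH2, with 34 to 50 reads per library, had 0.16 and was not called. HNRNPA0 was at -0.43, HNRNPA3 at -0.35 and HNRNPUL2 at -0.35. The annotated gene HNRNPUL2-BSCL2 of the same strand covers 44.15% of the exon bases of HNRNPUL2. Reads from either could not be separated by position there. HNRNPK, a binder of C-rich RNA, was at -0.27, as was HNRNPLL, which controls CD45 splicing in lymphocytes. HNRNPUL1 was at -0.22 and passed with an adjusted p of 0.0432 in edgeR's test, close to the threshold. Leaving out any library but WFA replicate 3 ended the call of HNRNPUL1, with log2 fold changes of -0.25 to -0.19. Those of HNRNPK and HNRNPLL were lost without DMSO replicate 1 (-0.27 and -0.24) or WFA replicate 3 (-0.22 and -0.24), that of HNRNPLL also without WFA replicate 2 (-0.24), and that of HNRNPA3 without WFA replicate 3 (-0.27).

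HNRNPU and HNRNPA2B1 took the most reads of the hnRNPs. Per kilobase of transcript HNRNPA2B1 was the highest with DMSO at 422 CPM. It was followed by HNRNPA1 at 328, HNRNPK at 327 and HNRNPU at 278 CPM. HNRNPA1 was divided by its principal transcript and HNRNPA2B1, HNRNPK and HNRNPU by their longest, so this order is uncertain. HNRNPU, a nuclear matrix protein that binds both DNA and RNA, had 1850.1, 1975 and 1888 CPM with DMSO and 1495, 1578 and 1260.3 CPM with WFA. Its groups did not overlap, and the log2 fold change was -0.40 (SE 0.104, adjusted p 0.00507 in edgeR's test). COX20 on the opposite strand shares 15.6% of its exon bases and fell by a like amount, with a log2 fold change of -0.42. HNRNPA2B1, which packages nascent RNA together with HNRNPA1 and HNRNPC, had 1563, 1539 and 1542 CPM with DMSO and 1479, 1388 and 1278 CPM with WFA. Each WFA library was below each DMSO library, yet the log2 fold change of -0.16 (SE 0.0946) gave an adjusted p of 0.165 in edgeR's test.

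The abundant core particle proteins HNRNPA1, HNRNPA2B1 and HNRNPC, together with HNRNPM and HNRNPL, thus did not pass the test, with log2 fold changes between -0.21 and -0.11. HNRNPA1 had 1262, 1520.1 and 1267 CPM with DMSO and 1138, 1299 and 1075 CPM with WFA, with a log2 fold change of -0.21 and an adjusted p of 0.128 in edgeR's test. Its groups overlapped, but the WFA library was lower in each same-numbered pair, and with the replicate number as a block edgeR called HNRNPA1 lower (adjusted p 0.0250). Scaling by total counts alone, which moved the median of all genes by -0.08, also called HNRNPA1, HNRNPA2B1, HNRNPC and HNRNPM lower.

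The other tested member was HNRNPA1L2, an intronless copy of HNRNPA1 on another chromosome. It had 10.5, 8.29 and 11.1 CPM with DMSO and 3.10, 3.95 and 4.28 CPM with WFA, from 38 to 149 reads per library. The fall was the largest of any member, with a log2 fold change of -1.40, and the groups were well apart. Of all stretches of 50 bases in its transcript, 58.5% also occur in another annotated transcript, mostly of HNRNPA1 or its pseudogenes, so that its counts depend on how reads with several matches were treated. Adding the reads of the copies to their parent genes left the log2 fold change of HNRNPA1 at -0.21. HNRNPA1 had 11551 to 19249 reads per library, so these few added reads could hardly move it. The sum therefore cannot show how reads with several matches affected HNRNPA1. The pseudogene HNRNPA1P10 had 2 to 9 reads per library, HNRNPA3P1 had 0 to 3 and HNRNPCL1 had 0 to 2, and these were not tested. HNRNPA1P33, HNRNPCL2, HNRNPCL3, HNRNPCL4 and HNRNPKP3 were listed at 0 in every library.

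Members of the same family did not all move by the same amount, which ratios of reads within a library show without any scaling. In total 10 such ratios were formed after the values had been seen. Separation of the groups can thus be built into the choice of pairs, and the ratios are a description only. SRSF5 had 0.447, 0.611 and 0.514 reads per read of SRSF6 with DMSO and 1.06, 1.19 and 1.25 with WFA. The ratio of SRSF4 to SRSF6 went from 0.316 ± 0.0289 to 0.579 ± 0.0815 and that of SRSF11 to SRSF10 from 0.772 ± 0.0601 to 1.21 ± 0.106 (SD, n = 3). Among hnRNPs, HNRNPD against HNRNPDL went from 1.92 ± 0.207 to 2.49 ± 0.120. HNRNPH1 against HNRNPH2 fell from 260 ± 52.2 to 163 ± 36.6. In all 10 the groups did not overlap, so that each reached the smallest p an exact two-sided permutation test can give here, 0.1, which stays 0.1 after adjustment over the 10.

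**Figure D3:**
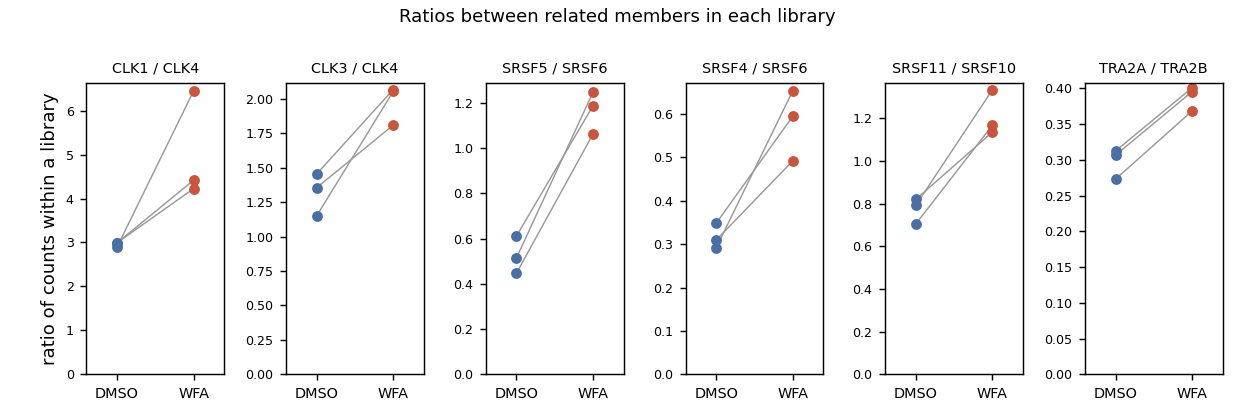
Ratio of the reads of paired family members within each library, for 6 of the 10 ratios. Those of hnRNPs and of SRSF5 to SRSF1 are not drawn. DMSO is on the left in blue and WFA on the right in red. Lines join same-numbered libraries, and each axis starts at 0. In these 6 panels every WFA point is above every DMSO point, and the CLK1 to CLK4 ratio of 6.45 in WFA replicate 3 stands highest above the rest of its group.

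The replicates differed in how far the transcripts fell. The log2 ratio of WFA to DMSO was lowest in pair 3 for 25 of the 34 SR proteins and hnRNPs, and for 20 of the 24 that were called, 83.3%. Among all 3178 genes called lower, pair 3 was the lowest for 59.5%, and among all tested genes for 36.3%. The median log2 ratio over the 38 members was -0.29 in pair 1, -0.31 in pair 2 and -0.49 in pair 3, so the fall was present in each pair. WFA replicate 3 also had the fewest reads of all libraries. Without it, 10 SR proteins and 11 hnRNPs were called lower, 6 and 3 of them by at least 1.5-fold. In the same fit 2815 of all 13021 tested genes were lower, 1533 of them by at least 1.5-fold.

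Splicing factors outside these families were examined on 5 lists written from general knowledge. Among 39 tested SR-related proteins 18 were lower and 3 higher, with a median log2 fold change of -0.19. BCLAF1, which shares its arginine- and serine-rich part with THRAP3, fell from 408 ± 45.7 to 208 ± 23.0 CPM, and PRPF38B fell from 179 ± 18.2 to 107 ± 5.94 CPM. SRRM3, a factor for neuronal microexons, rose by 3.14 on the log2 scale from a trace level, 0.538 ± 0.0338 to 4.85 ± 0.543 CPM. SCAF1, whose product binds the tail of RNA polymerase II, rose by 0.40.

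Of 61 tested core spliceosome genes, 28 were lower and 5 higher, with a median of -0.19. SNRPD1, an Sm ring protein, fell from 144 ± 2.40 to 68.0 ± 8.997 CPM, a log2 fold change of -1.08. PRPF4, of the U4/U6 particle, fell by 0.72. CD2BP2 rose by 0.90 and the second-step factor SLU7 by 0.49. Of 17 hnRNPs that go by other symbols, 5 were lower, 29.4% against 24.7% of all tested genes, and 3 were higher, 17.6% against 25.8%. SYNCRIP, which acts in mRNA stability and translation, fell from 968 ± 67.0 to 491 ± 33.6 CPM, RBMX by 0.83 and its retrocopy RBMXL1 by 0.69. RALY, a relative of HNRNPC, rose by 0.39 and PCBP1, a relative of HNRNPK, by 0.35.

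On the list of other kinases and importins, 3 of 10 were lower and 3 higher. PRPF4B, a kinase of the spliceosome, fell from 146 ± 18.0 to 89.0 ± 1.57 CPM, and the cytoplasmic SR kinase SRPK1 fell by 0.38. Its paralog SRPK2 rose by 0.51, and the importin TNPO1 rose from 463 ± 36.4 to 691 ± 54.0 CPM. Of the other importins on the list, TNPO3 rose by only 0.21 and TNPO2 fell by 0.35. Among 39 further splicing regulators 10 were lower and 4 higher. FUBP1 fell by 1.33, RBM23 rose by 0.84, ILF2 fell by 0.71 and ESRP1, an epithelial regulator, rose by 2.35 from 1.72 ± 0.463 CPM. The share of lower genes was thus 71.4% for SR proteins, 70.0% for hnRNPs, 46.2% for SR-related proteins, 45.9% for the core spliceosome, 30.0% for the other kinases and importers, 29.4% for the hnRNPs of other symbols and 25.6% for the further regulators, against 24.7% of all tested genes. The share of higher genes on the 5 further lists was 7.69%, 8.20%, 30.0%, 17.6% and 10.3% in that order, against 25.8% of all tested genes.

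**Figure D4:**
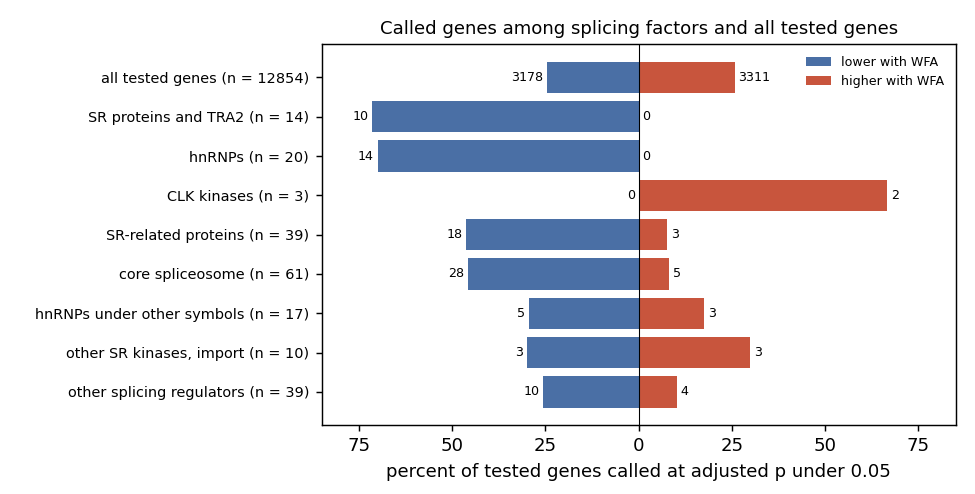
Percent of tested genes called lower (blue, to the left) and higher (red, to the right) with WFA at an adjusted p under 0.05 in edgeR's test, for all tested genes, the 3 families and 5 further lists, with the number of genes at each bar. SR proteins and hnRNPs have 10 and 14 lower genes and 0 higher, and CLK kinases have 0 lower and 2 higher. The 5 further lists hold genes of either direction.

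Because these genes make many transcripts, and a gene count sums them, the annotation was examined for their kinds. All 14 SR proteins have at least 1 transcript annotated as a target of nonsense-mediated decay, as do all 3 tested CLK kinases and 13 of 20 hnRNPs, against 43.6% of 11524 tested coding genes. Transcripts with a retained intron are annotated for 11 SR proteins, 14 hnRNPs and all 3 CLK kinases, which have a median of 8 of them, against 58.0% of tested coding genes. The counts do not tell productive from decay-prone or intron-retaining transcripts, so no statement on protein-coding mRNA alone can be made from them.

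The promoters were read for motifs in RefSeq windows of 300 bases, 250 before and 50 after the annotated start, found for 12 SR proteins, 19 hnRNPs and all 4 CLK kinases (GRCh38.p14). The c-MYB consensus TAACNG or CAACNG, searched on both strands like the others, occurred in 8 of 12 SR protein windows, 10 of 19 hnRNP windows and 1 of 4 CLK windows, against 43.5% of windows of tested genes. The E-box CACGTG, which MYC and its relatives bind, was found in 7 of 19 hnRNP windows, in none of 12 SR protein windows and in those of CLK2 and CLK4, against 10.2%. CCAAT, the box of the factor NF-Y, was in 13 of 19 hnRNP, 2 of 12 SR protein and 1 of 4 CLK windows, against 36.5%. The full heat shock element, 3 alternating GAA and TTC units set 2 bases apart, was found in HNRNPA2B1 alone among members, against 0.33% of windows of tested genes, and its part GAANNTTC in HNRNPA2B1, HNRNPC and SRSF8, against 4.46%. The ETS motif CCGGAAGT was in the windows of SRSF4, SRSF5 and HNRNPD, against 8.95%, and the ATF4 motif TGATGNAA in none, against 1.67%. The YY1 element also had no match among members, against 2.10%. A match describes letters in a window and is not evidence of binding.

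The windows of 4 genes are given 5′ to 3′ on the strand of the gene, with the motif named here in capitals. SRSF6 (chr20:43457646-43457945, plus strand) is shown as the SR protein that fell most, with its c-MYB consensus, and HNRNPDL (chr4:82430176-82430475, minus strand) as the hnRNP that fell most, with its E-box. HNRNPA2B1 (chr7:26200697-26200996, minus strand) is shown for the heat shock element, 38 bases before the start, in a gene that was not called. CLK1 (chr2:200864609-200864908, minus strand), the kinase that rose most, holds none of the motifs searched.
SRSF6: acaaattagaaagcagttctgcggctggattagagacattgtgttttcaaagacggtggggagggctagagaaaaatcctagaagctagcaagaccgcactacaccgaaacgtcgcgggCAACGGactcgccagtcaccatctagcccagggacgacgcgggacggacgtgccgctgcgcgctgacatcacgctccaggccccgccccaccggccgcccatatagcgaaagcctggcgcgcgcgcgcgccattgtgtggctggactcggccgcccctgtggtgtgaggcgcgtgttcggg
HNRNPDL: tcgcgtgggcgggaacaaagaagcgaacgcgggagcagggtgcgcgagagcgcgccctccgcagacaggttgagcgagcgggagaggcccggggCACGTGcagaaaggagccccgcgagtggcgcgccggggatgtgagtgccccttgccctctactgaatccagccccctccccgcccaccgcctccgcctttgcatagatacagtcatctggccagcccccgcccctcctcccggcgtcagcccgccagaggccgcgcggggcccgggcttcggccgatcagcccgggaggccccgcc
HNRNPA2B1: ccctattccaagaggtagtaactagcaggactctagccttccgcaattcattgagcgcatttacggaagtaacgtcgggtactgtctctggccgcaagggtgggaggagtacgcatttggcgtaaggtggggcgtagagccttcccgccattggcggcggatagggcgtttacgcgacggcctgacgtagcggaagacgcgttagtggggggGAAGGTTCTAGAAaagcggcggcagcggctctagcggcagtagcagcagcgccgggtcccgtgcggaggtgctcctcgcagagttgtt
CLK1: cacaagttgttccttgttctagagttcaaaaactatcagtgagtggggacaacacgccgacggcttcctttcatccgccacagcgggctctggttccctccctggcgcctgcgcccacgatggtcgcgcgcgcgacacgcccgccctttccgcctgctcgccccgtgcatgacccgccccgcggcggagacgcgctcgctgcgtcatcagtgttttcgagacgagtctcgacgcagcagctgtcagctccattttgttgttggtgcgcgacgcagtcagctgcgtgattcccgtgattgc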

How the data were processed

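RNA from 3 DMSO and 3 WFA cultures of THP1 cells was made into libraries with the TruSeq RNA v2 kit, which does not mark strand. For each library the authors deposited raw counts of reads on every gene, in whole numbers, beside rounded scaled counts and their own fold changes and p-values, which were not used. The submitters' processing notes name bcl2fastq 2.19, Trimmomatic, Bowtie2, Picard, featureCounts, DESeq2 and the build hg38. Settings, annotation and the treatment of reads with several matches are not given in the sources used here. An aligner that favours 1 match or drops ties would change counts of near-identical copies.

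Counts of all genes were fitted in R 4.3.3 with edgeR 4.0.16 (TMM scaling, filterByExpr with a minimum count of 10, quasi-likelihood test, group as the only term), with p-values adjusted by the Benjamini-Hochberg method over 12854 genes. Ratios were compared by an exact permutation test. The fit was tested on simulated data. Groups and replicate numbers come from the sample labels. Same-numbered DMSO and WFA libraries share a marker in their labels. Their deviations from the group means correlated across genes at 0.25, 0.38 and 0.27, against -0.30 to 0.02 for other pairs of libraries. Deviations within a group cancel for each gene, so positive values for same-numbered libraries push those of other pairs down. The contrast is thus partly built in. A block on the replicate number was run as an alternative and is given beside results whose call it changes. Other alternatives were RLE factors, total counts, the upper quartile, no filter, a stricter filter (50 reads in 3 libraries), a robust fit, copies added to their parents, DESeq2 1.42.0 and leaving out each library. Transcript annotation was GENCODE 29, and promoter windows were from RefSeq.

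The members and lists were chosen with earlier results of these data known. Values per library are given for members that were called with a change of at least 1.5-fold, for CLK kinases, TRA2 genes and the 2 SR proteins and 2 hnRNPs with most reads, and for SRSF5 and HNRNPA1, which were added because the block changes their call. On each further list up to 3 called genes with the smallest p-values and up to 2 called against the list's majority are named. PRPF8, DHX16, TAF15, CWC25, COL1A1, SRPK1, TNPO2, TNPO3 and single myeloid markers were named after their values were seen. Precision is limited by totals of 11006035 to 13872810 reads per library. A comparison of the sequence of a gene with that of its copy is not reported here.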

Additional observations from a re-analysis of the deposited data

How the results depend on the processing

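With the replicate block SR proteins called higher rose from 0 to 1 (SRSF5), and HNRNPA1 was called lower. It changed no other member's call. On the further lists it moved no count by over 1.5 times. Lower genes went from 28 to 32 in the core spliceosome, from 18 to 20 among SR-related proteins and from 10 to 14 among further regulators. Over all 12854 tested genes those called lower went from 3178 to 3708. Members called at least 1.5-fold higher, all of them CLK kinases, went from 2 to 1 with RLE factors, total counts, no filter and DESeq2, where CLK3 lay just under 1.5-fold. Leaving out each library gave 0 to 2, with 0 without WFA replicate 3 and 1 without DMSO replicate 1, DMSO replicate 3 or WFA replicate 1. In each of these fits CLK3 lay just under 1.5-fold, at log2 fold changes of 0.56 to 0.57, and stayed called. Without WFA replicate 3 CLK1 also did, at 0.55. Why these values shifted was not tested. With total counts 6 hnRNPs in place of 3 were called at least 1.5-fold lower and their median was -0.44. That scaling called 2763 genes higher and 3875 lower over the whole table, against 3311 and 3178 with TMM. Of all 12854 tested genes, 2050 were at least 1.5-fold lower with it and 1677 with TMM.

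The log2 fold change of CLK4, near 0, turned to -0.0108 with RLE factors and without a filter, to -0.0834 with total counts and to -0.0187 with DESeq2, and leaving out each library gave -0.0891 to 0.0667. Without WFA replicate 3, that of HNRNPH2 was -0.00089 and that of SRSF12 was 0.0306. Over all such omissions HNRNPH2 ranged from -0.00089 to 0.30 and SRSF12 from -1.25 to 0.0306. None of these was called under any alternative. CLK1, CLK3 and the 10 called SR proteins kept their direction and call under every alternative run, as did 10 of the 14 called hnRNPs. HNRNPUL1 was also lost with the stricter filter (-0.20). Depth limits HNRNPH2, SRSF12 and the copies, which had few reads.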
